A study of Mus musculus with 15 samples.

Results

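MYC and ribosome biogenesis genes were followed in RNA-seq libraries of mouse retinal pigment epithelium (RPE), the pigmented cell layer behind the photoreceptors. The set holds 40 genes, chosen by their symbols: Myc itself and 39 genes for nucleolar proteins that make ribosomes. Earlier results of these data were known at the choice. The study that made the data had reported raised MYC target gene sets in Prom1-knockout cells, so the set is not independent of the data. All 40 were found among the 20910 genes of the count table of cultured cells and among the 25038 genes of the table of tissue, out of 26509 genes in the pair of tables, and all 40 passed the count filter in every comparison.

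The cultured cells (mRPE) are RPE cells pooled from young adult C57BL/6J mice and immortalised with the E6 and E7 proteins of a papillomavirus. Of the 9 mRPE libraries, 4 are WT, 3 are of the CRISPR/Cas9 Prom1-KO clone KO22 and 2 are of the Prom1-KO clone KO26, so that each knockout genotype is represented by a single clone. Both clones were made by stable Cas9 expression with puromycin selection and a guide RNA against exon 5 of Prom1, and the labels do not say whether the WT libraries carried Cas9 or a scrambled guide. The library names divide them into 2 batches. WT replicate 1, KO22 replicate 1 and KO26 replicate 1 belong to batch 1, and WT replicates 2 to 4, KO22 replicates 2 and 3 and KO26 replicate 2 to batch 2. The other 6 libraries are of RPE/choroid, the RPE dissected together with the vascular layer beneath it, from 3 WT samples and 3 samples labelled Prom1-KO (Prom1 fl/fl with RPE65-Cre, given tamoxifen by gavage). RPE65-Cre is meant to act in the RPE. Whether other cells of these samples keep the gene was not tested. For the mice, the study's methods give one range of ages, that of young adults, for the project as a whole. The age and the number of animals behind each tissue sample are not given in the sources used here. The study speaks of biological replicates, but no source says that the mRPE libraries came from separate cultures, so their p-values measure the spread between these libraries, which may be technical.

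MYC is a transcription factor that pairs with MAX, binds the DNA letters CACGTG (an E-box) and is known for raising the genes that make ribosomes. Ribosomes are built in the nucleolus: RNA polymerase I copies the ribosomal RNA genes, small nucleolar ribonucleoproteins (snoRNPs) modify the transcript, the small subunit processome cuts it and folds the part that enters the 40S subunit, and a separate series of factors assembles the 60S subunit. RPE in the eye is a non-dividing tissue, whereas cells in culture divide and need new ribosomes.

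Total counts were 10187978 to 27537863 in WT mRPE, 11863633 to 20760399 in KO22, and 24175274 and 8076188 in KO26. Totals were 51742746 to 59625225 in WT RPE/choroid and 48154444 to 61766179 in the samples labelled Prom1-KO. The lowest count of any member in any library was 27 in mRPE and 36 in tissue, both for Rrp12. No row of the mRPE table used here carries Prom1, and the labels of the clones could therefore not be checked by its level. For its Prom1-KO clones, the study reports the Prom1 protein as absent by Western blot and the transcript as reduced by qPCR. In RPE/choroid, Prom1 stood at 48.7, 49.6 and 53.3 CPM in WT and at 49.9, 48.1 and 35.5 CPM in the libraries labelled Prom1-KO (log2 fold change -0.18, adjusted p = 0.824 by edgeR), so those libraries are named by their label only. CPM, the count of a gene relative to the total count of its library, is here scaled by the TMM factors of edgeR.

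RPE markers were few in the cultured cells. The mRPE table used here holds rows for 5 of 15 RPE markers, and Rpe65, Rlbp1, Lrat, Rgr, Ttr and Tyr are not among them. The 5 summed to 56.1 to 84.2 CPM in WT, 68.3 to 109 CPM in KO22 and 51.5 and 58.9 CPM in KO26. Mertk, a receptor of phagocytosis, was the most abundant of them in every WT and KO26 library, and Slc16a3, a lactate transporter gene, in every KO22 library. Mertk stood at 45.3 to 66.6 CPM in WT, 3.29 to 6.22 CPM in KO22, and 44.4 and 45.6 CPM in KO26, and Slc16a3 at 2.62 to 5.42 CPM in WT and 43.9 to 66.8 CPM in KO22. The 12 proliferation markers summed to 940.4 to 1191 CPM in WT mRPE, against 50.4 to 89.4 CPM in WT RPE/choroid.

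The E-box letters were searched in RefSeq promoters (build GRCm38.p6), each running from 250 bases before to 50 bases after an annotated start. Promoters were found for 33 of the 40 members. CACGTG, which reads the same on both strands, occurred in promoters of 8 of the 33 (24.2%), against 8.09% of all 27025 genes with a promoter. CACGCG, a related form searched on both strands, occurred in 37.8% of the members' 37 promoters and in 9.27% of all 32851 promoters. The 2 motifs differ in 1 base and cannot lie on the same 6 bases, although they may overlap in part. Base composition was not matched between these groups, and a match in letters is not evidence of binding. The windows below are shown because they place the E-box in the 6 members with the smallest p for KO22 against WT among those that hold one, with CACGTG in capitals. Each is printed 5′ to 3′ on the strand of its gene, and its position is that of an exact match in GRCm39:
Utp4, chr8:107620275-107620304 (+ strand): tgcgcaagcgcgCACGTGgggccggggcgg
Wdr43, chr17:71923215-71923244 (+ strand): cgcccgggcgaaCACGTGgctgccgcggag
Nop2, chr6:125108774-125108803 (+ strand): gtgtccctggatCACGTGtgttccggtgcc
Mybbp1a, chr11:72332181-72332202 (+ strand): gtcttctgagccCACGTGtttg
Pes1, chr11:3913965-3913994 (+ strand): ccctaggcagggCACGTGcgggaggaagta
Pno1, chr11:17161540-17161564 (- strand): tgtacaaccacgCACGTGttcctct
In Nop2 the E-box begins 60 bases before the RefSeq start. In the other 5 it lies within an annotated exon just after the start, beginning at base 16 in Utp4, 18 in Wdr43, 41 in Mybbp1a, 3 in Pes1 and 38 in Pno1. The other 2 members with CACGTG are Imp4 and Utp20. The log2 fold changes of the 8 in KO22 ran from 0.066 for Utp20, the smallest of all 40 members, to 2.29 for Utp4, the largest, and members without the motif rose as well. The median log2 fold change for KO22 against WT was 1.204 over the 8 members with CACGTG and 1.34 over the 25 with a promoter that lacks it.

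KO22 cells had more RNA than WT cells for nearly every member. In KO22 against WT, 39 of the 40 members were higher at an adjusted p under 0.05, and none was lower (edgeR quasi-likelihood test with batch as a term, Benjamini-Hochberg over 20455 genes, n = 3 and 4). Of all genes tested, 26.9% were higher and 26.1% lower at the same limit. With a log2 fold change over 1.2 as well, 26 of 40 members were higher, against 11.4% of all genes. The members' median log2 fold change was 1.34, with a range of 0.07 to 2.29, and that of all genes was -0.03. In 31 members every KO22 library lay above every WT library, as in 24.8% of all genes. In bulk RNA, a change in the number of cells in a given state and a change in RNA per cell cannot be told apart.

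The size of the difference depended on the batch. Within batch 1, which has a single library of each group and allows no test, the median log2 difference of KO22 from WT was 0.58 and 32 of 40 members were higher. Within batch 2 it was 1.65, and 40 of 40 were higher. In a fit with an interaction of clone and batch, chosen after these values were seen, the KO22 difference was larger in batch 2 for 29 of 40 members at an adjusted p under 0.05 and smaller for none, against 17.2% of all genes that were larger in batch 2 and 9.34% that were smaller. Batch 1 has 1 library of each group, so the spread in this fit comes from batch 2 and the single libraries of batch 1 are assumed to vary alike. Myc (interaction 0.26, adjusted p = 0.289), Utp4 (0.40, adjusted p = 0.0917) and Rrp1b (0.15, adjusted p = 0.551) were among the 11 members for which no difference between batches was detected. Relative to the WT mean, the members' median log2 level was 0.37 in WT replicate 1 and -0.19, -0.060 and -0.13 in WT replicates 2 to 4. It was 0.99 in KO22 replicate 1 and 1.38 and 1.50 in KO22 replicates 2 and 3, so that the WT library of batch 1 was the highest of its group and the KO22 library of batch 1 the lowest. A locus derived from ribosomal RNA (Rn18s-rs5) was also higher in batch 1, at 50564 CPM in WT, 40517 CPM in KO22 and 56291 CPM in KO26, than in batch 2 (12169 to 12793, 14409 and 25504, and 23682 CPM), and its part in the members' values was not tested. Culture, extraction and sequencing cannot be told apart as the source of the batch.

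**Figure D1:**
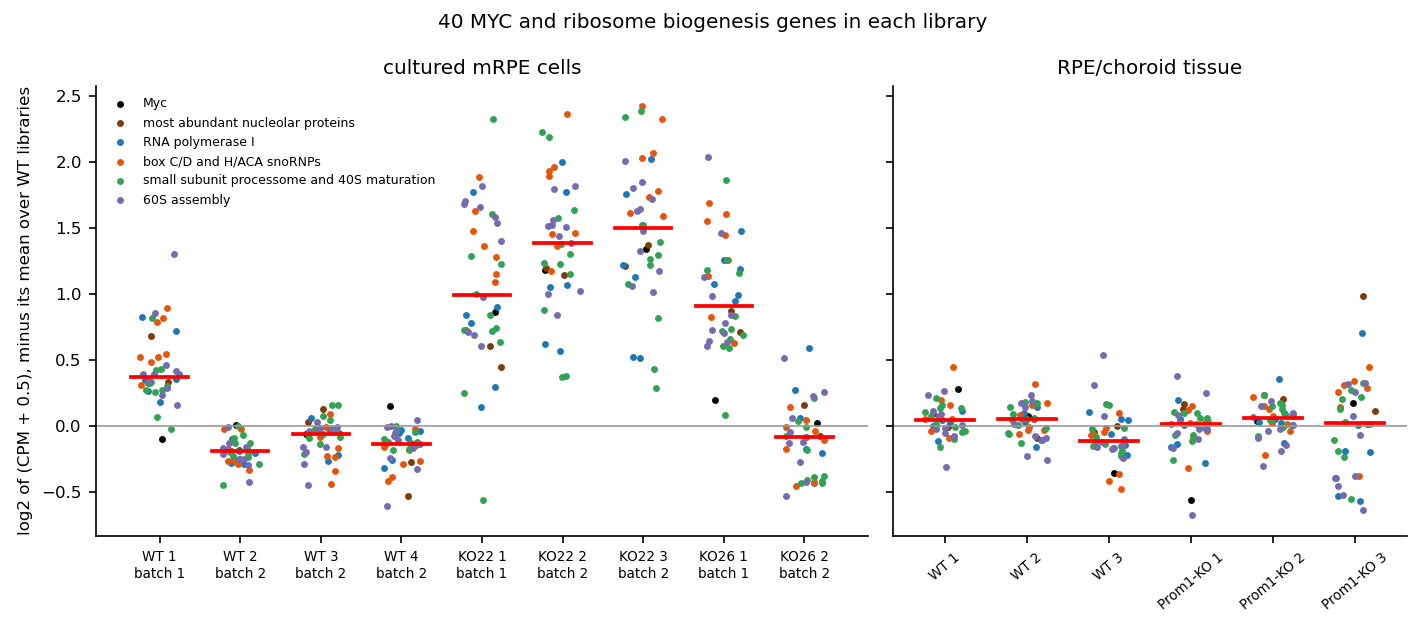
Each point is 1 of the 40 members in 1 library, as log2 of (CPM + 0.5) minus its mean over the WT libraries of the same table, coloured by role, and red lines are medians over the members. The 3 KO22 libraries have medians of 0.99 to 1.50, KO26 replicate 1 has 0.91 and KO26 replicate 2 has -0.08, while the 6 tissue libraries lie between -0.11 and 0.06.

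Myc (chr15:61857227-61862223, GRCm39) rose in KO22. In the order of the replicates, with the batch 1 library first in each group, it was at 61.4, 66.2, 62.9 and 73.1 CPM in WT, 119.9, 149.5 and 168 CPM in KO22 and 75.5 and 66.7 CPM in KO26. All 3 KO22 libraries lay above all WT libraries, while KO26 replicate 1 was just above the WT range and KO26 replicate 2 within it. The fitted change in KO22 was a log2 fold change 1.15 ± 0.11 (standard error), adjusted p = 3.15e-05 (edgeR). Within the batches it was 0.96 and 1.23, and WT replicate 1, which stood above the WT mean for 38 of 40 members, was the lowest WT library for Myc.

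Npm1 and Ncl encode nucleophosmin and nucleolin, the most abundant proteins of the nucleolus and chaperones of ribosome assembly. Npm1 (chr11:33100281-33113267) was at 926, 648, 805 and 608 CPM in WT, 1002, 1692 and 1905 CPM in KO22 and 1209 and 824 CPM in KO26. Ncl (chr1:86272441-86287208) was at 753, 410.0, 479 and 324 CPM in WT, 714, 1034 and 1085 CPM in KO22 and 858 and 444 CPM in KO26. The 2 high KO22 libraries were those of batch 2 in both genes, and for Ncl the KO22 library of batch 1 lay within the WT range. The fit gave log2 fold change 1.03 ± 0.23 (standard error), adjusted p = 0.00444 for Npm1 and log2 fold change 0.98 ± 0.26 (standard error), adjusted p = 0.0105 for Ncl (edgeR). The call of Ncl was lost without KO22 replicate 2 (log2 fold change 0.82). Within batch 1 the log2 differences were only 0.11 and -0.076, against 1.40 and 1.41 within batch 2. Npm1 has near-identical processed copies elsewhere in the genome, so its level is uncertain where reads could not be assigned to a single place.

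All 6 members that serve RNA polymerase I rose in KO22, 3 of them past the fold limit, with a median log2 fold change of 1.15. Polr1b, the second-largest subunit of the enzyme, was at 14.5, 7.47, 7.07 and 7.10 CPM in WT, 30.6, 18.4 and 20.7 CPM in KO22 and 20.2 and 6.25 CPM in KO26. Mybbp1a, a nucleolar protein that binds the polymerase and MYB, was at 96.8, 66.3, 83.7 and 77.2 CPM in WT, 144, 275 and 272 CPM in KO22 and 160.4 and 97.2 CPM in KO26. Tcof1, whose product treacle holds the polymerase at the ribosomal RNA genes, was at 26.8, 17.0, 20.5 and 20.4 CPM in WT, 39.4, 85.2 and 86.5 CPM in KO22 and 59.1 and 31.8 CPM in KO26. In all 3 genes the KO22 libraries lay above the WT libraries, but in Polr1b the batch 1 library was the highest of KO22 and in Mybbp1a and Tcof1 the lowest. The smallest changes of the group were those of Polr1a, the catalytic subunit (log2 fold change 0.44, adjusted p = 0.0228), and Polr1c, a subunit shared with RNA polymerase III. Both calls were lost without any 1 of WT replicates 2 to 4 or KO22 replicates 2 and 3, and in the fit over 9 libraries. Polr1c was at 33.6, 22.6, 25.04 and 24.5 CPM in WT, 32.2, 38.9 and 37.6 CPM in KO22 and 55.7 and 23.1 CPM in KO26. WT and KO22 overlapped in Polr1a, Polr1c and the RNA helicase gene Ddx21 (log2 fold change 0.98, adjusted p = 0.006), and the highest library for each of these 3 genes was KO26 replicate 1.

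The snoRNP genes were the group with the largest median. All 8 passed both limits in KO22, at a median of 1.77 on the log2 scale. Box C/D snoRNPs methylate ribosomal RNA, and their core is made of fibrillarin, the methyltransferase (Fbl), and the scaffold proteins Nop56 and Nop58. Nop56 (chr2:130115808-130121238) was at 115, 77.3, 99.0 and 83.8 CPM in WT, 207, 479 and 468 CPM in KO22 and 205 and 102 CPM in KO26. Nop58 was at 132, 81.2, 86.8 and 76.3 CPM in WT, 285, 342 and 377 CPM in KO22 and 142 and 94.7 CPM in KO26. Fbl was at 42.9, 20.2, 19.3 and 22.0 CPM in WT, 53.1, 64.2 and 75.2 CPM in KO22 and 76.2 and 23.9 CPM in KO26. In Nop56 the 2 KO22 libraries of batch 2 were over 2 times as high as the KO22 library of batch 1, whereas in Nop58 they were higher by a smaller step. Fbl was as high in KO26 replicate 1 as in the highest KO22 library, and within the WT range in KO26 replicate 2.

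H/ACA snoRNPs turn uridine into pseudouridine in ribosomal RNA, and Dkc1 encodes their enzyme. Dkc1 was at 61.5, 41.4, 35.7 and 34.4 CPM in WT, 118, 165 and 178 CPM in KO22 and 74.9 and 39.1 CPM in KO26. Gar1 was at 10.1, 6.99, 5.11 and 6.96 CPM in WT, 27.6, 20.5 and 24.8 CPM in KO22 and 20.2 and 6.25 CPM in KO26. Nhp2 was at 11.9, 5.14, 5.20 and 4.52 CPM in WT, 16.8, 25.1 and 35.4 CPM in KO22 and 21.2 and 4.40 CPM in KO26. For these genes every KO22 library was above every WT library. For Gar1 no difference between the batches was detected (interaction 0.36, adjusted p = 0.341 by edgeR), with log2 differences of 1.40 and 1.76, whereas Nhp2 had the largest interaction of the members (2.10, adjusted p = 1.47e-05, again on the spread of batch 2), with 0.48 and 2.48. Nop10, the smallest protein of the complex, was at 33.3, 15.4, 16.5 and 14.1 CPM in WT, 31.1, 42.7 and 65.0 CPM in KO22 and 55.5 and 13.8 CPM in KO26. Nolc1, a chaperone of both kinds of snoRNP, was at 48.5, 26.5, 33.4 and 29.4 CPM in WT, 82.2, 92.6 and 104 CPM in KO22 and 81.0 and 33.4 CPM in KO26. Nop10 was the only snoRNP gene in which WT and KO22 overlapped, the KO22 library of batch 1 lying below the WT library of batch 1.

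**Figure D2:**
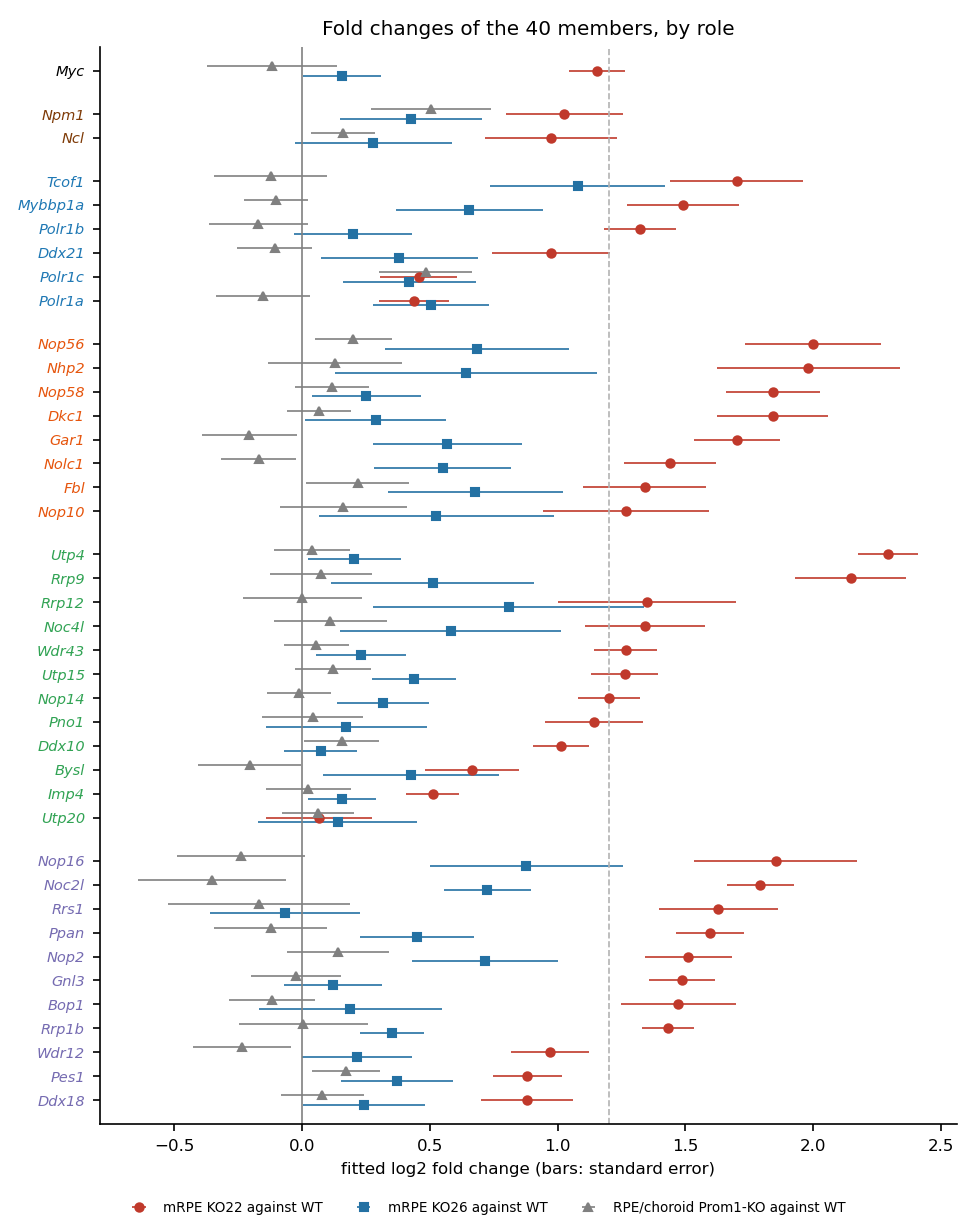
Fitted log2 fold changes of the 40 members (points) with their standard errors (bars), in blocks by role, for KO22 against WT, KO26 against WT and RPE/choroid labelled Prom1-KO against WT, with the limit of 1.2 as a dashed line. KO22 values reach 2.29 (Utp4), while KO26 values lie between -0.07 and 1.08 and tissue values between -0.35 and 0.50.

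Among the 12 genes of the small subunit processome and of 40S maturation, 11 rose in KO22, 7 of them past both limits, and the median log2 fold change was 1.23. Utp4 (chr8:107619814-107649965), a WD-repeat protein of the subcomplex that first binds the transcript, was at 41.4, 28.4, 31.5 and 31.8 CPM in WT, 167, 156 and 169.6 CPM in KO22 and 55.2 and 29.0 CPM in KO26. Its fitted change was a log2 fold change 2.29 ± 0.12 (standard error), adjusted p = 9.8e-07 (edgeR), the largest of the 40 members. All 1089 tested genes of chromosome 8 had a median of 0.60 in the same comparison, the highest of any chromosome. The part of this shift in the change of Utp4 was not tested. Wdr43, a partner of Utp4, was at 100.2, 72.4, 76.0 and 71.6 CPM in WT, 186, 207 and 186 CPM in KO22 and 128 and 74.7 CPM in KO26. Utp15, of the same subcomplex, was at 32.9, 20.8, 23.0 and 22.8 CPM in WT, 60.6, 58.3 and 61.0 CPM in KO22 and 44.1 and 28.5 CPM in KO26. In these 3 genes the KO22 libraries differed little from each other, with standard deviations of 7.16, 12.1 and 1.47 CPM, and the batch 1 library lay between the other 2.

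Rrp9, a protein of the U3 snoRNP that guides the first cuts, was at 8.34, 5.90, 6.87 and 5.81 CPM in WT, 21.4, 32.2 and 37.0 CPM in KO22 and 15.7 and 4.86 CPM in KO26. Nop14, a scaffold protein of the processome, was at 61.5, 55.0, 65.6 and 53.5 CPM in WT, 118, 146 and 142 CPM in KO22 and 88.7 and 60.4 CPM in KO26, and its log2 fold change of 1.2005 was just above the limit. Noc4l, its binding partner, was at 10.7, 8.36, 8.25 and 8.04 CPM in WT, 13.9, 28.3 and 26.2 CPM in KO22 and 21.7 and 6.48 CPM in KO26. Every KO22 library was above every WT library for these genes, and KO26 replicate 1 was above all WT libraries while KO26 replicate 2 was not. Rrp12, which acts in the export of the 40S subunit, was at 8.14, 3.08, 3.73 and 3.88 CPM in WT, 7.61, 14.1 and 13.6 CPM in KO22 and 17.4 and 3.12 CPM in KO26. Its KO22 library of batch 1 lay within the WT range, and its highest library was KO26 replicate 1. Ddx10, an RNA helicase (log2 fold change 1.01), Pno1, a factor of late 40S maturation (log2 fold change 1.14), Bysl, bystin (log2 fold change 0.67), and Imp4, a U3-associated protein (log2 fold change 0.51), rose by less than the limit. The call of Bysl was lost without WT replicate 3, KO22 replicate 2 or KO22 replicate 3, and in the fit over 9 libraries.

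Utp20 was the only member that did not pass the test in KO22. It encodes a very large scaffold protein of the processome and was at 115, 86.8, 93.3 and 87.3 CPM in WT, 64.2, 123 and 116 CPM in KO22 and 145 and 72.3 CPM in KO26. The KO22 library of batch 1 was the lowest of all 9 and the KO22 libraries of batch 2 were above all WT libraries. The fitted log2 fold change 0.066 ± 0.21 (standard error), adjusted p = 0.811 (edgeR) therefore averaged a lower level within batch 1 (-0.83) and a higher level within batch 2 (0.42), and the interaction with batch was 1.26 (adjusted p = 1.25e-05 by edgeR, with the spread of batch 2 taken for the single libraries of batch 1).

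**Figure D3:**
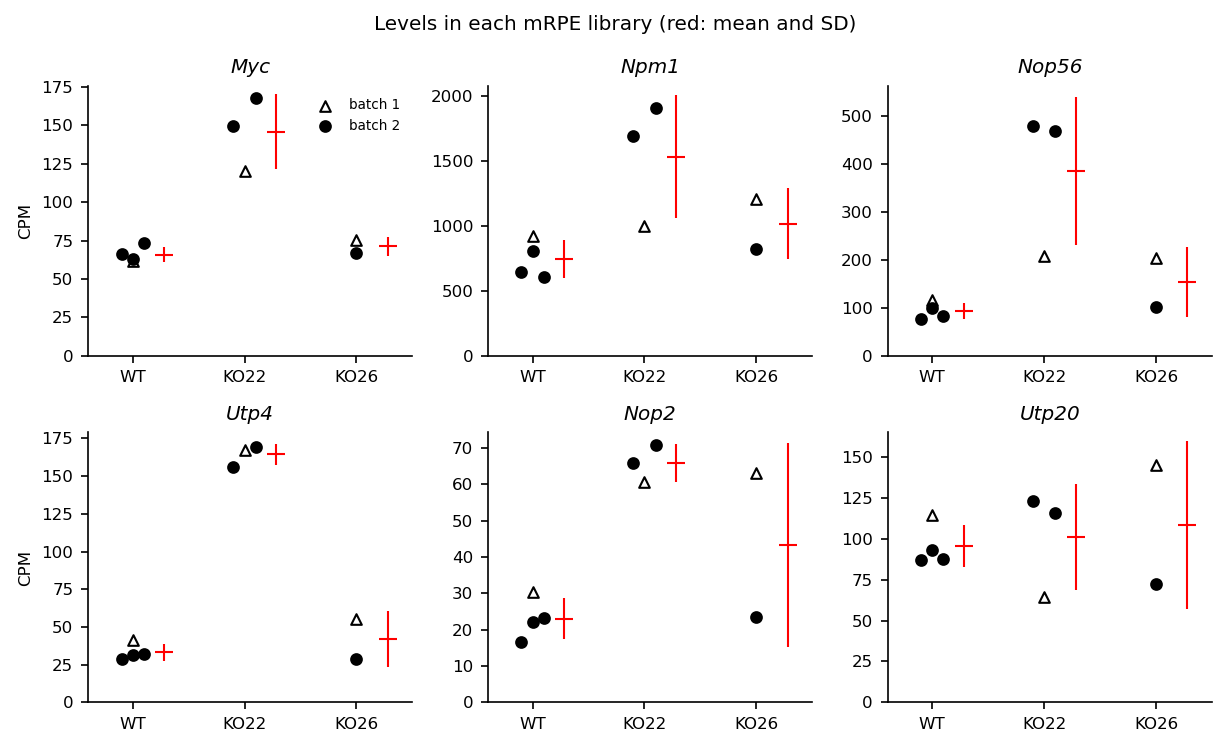
CPM of 6 members in each mRPE library, with batch 1 as open triangles, batch 2 as filled circles, and the mean and SD of each group in red, on linear axes that start at 0. Utp4 separates KO22 (156.2 to 169.6 CPM) from all other libraries in both batches, while Nop2 and Npm1 in KO26 differ between batches and Utp20 in KO22 does.

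All 11 genes of 60S assembly rose in KO22, 8 of them past both limits, with a median log2 fold change of 1.49. Rrp1b, a nucleolar protein of early 60S assembly, was at 52.9, 36.8, 37.2 and 41.6 CPM in WT, 133, 109.9 and 105 CPM in KO22 and 65.1 and 49.8 CPM in KO26. Noc2l, a factor of 60S export, was at 17.3, 14.5, 12.7 and 14.2 CPM in WT, 47.9, 51.9 and 53.8 CPM in KO22 and 29.4 and 21.1 CPM in KO26. Ppan, an early assembly factor, was at 17.998, 11.7, 13.5 and 12.1 CPM in WT, 45.5, 37.7 and 43.6 CPM in KO22 and 30.3 and 12.8 CPM in KO26. These 3 had the smallest p-values of the group, and in each the lowest KO22 library was about 2 or more times the highest WT library. The within-batch log2 differences of Rrp1b were 1.32 and 1.47.

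Gnl3, nucleostemin, a GTPase known for high levels in stem and tumour cells, was at 114, 76.3, 88.3 and 72.8 CPM in WT, 252, 248 and 242 CPM in KO22 and 142 and 71.6 CPM in KO26. Nop2, an RNA methyltransferase of the 28S ribosomal RNA, was at 30.3, 16.7, 22.0 and 23.3 CPM in WT, 60.6, 66.0 and 70.9 CPM in KO22 and 63.2 and 23.6 CPM in KO26. Rrs1, which helps to insert the 5S particle, was at 12.5, 5.55, 5.40 and 5.24 CPM in WT, 21.0, 20.7 and 23.2 CPM in KO22 and 10.7 and 4.86 CPM in KO26. The KO22 libraries of Gnl3 differed by less than 10 CPM, and those of all 3 genes were above every WT library. Rrs1 was the only member with a negative log2 fold change in KO26 (-0.067, adjusted p = 0.922), whereas Nop2 in KO26 replicate 1 reached the range of KO22.

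Bop1, a member of the PeBoW complex with Pes1 and Wdr12, was at 18.7, 11.4, 13.9 and 13.3 CPM in WT, 28.4, 41.1 and 50.7 CPM in KO22 and 25.8 and 9.60 CPM in KO26. Its partners Pes1 (log2 fold change 0.88) and Wdr12 (log2 fold change 0.97) rose by less than the fold limit. Nop16 was at 23.0, 7.47, 6.48 and 5.74 CPM in WT, 33.1, 33.1 and 37.7 CPM in KO22 and 38.5 and 10.6 CPM in KO26. Ddx18, an RNA helicase and the member of the group with the largest p, was at 53.0, 34.1, 34.4 and 34.9 CPM in WT, 58.5, 78.5 and 77.9 CPM in KO22 and 64.0 and 35.2 CPM in KO26. Nop16 and Ddx18 were also high in WT replicate 1, so that within batch 1 their log2 differences were 0.52 and 0.14, against 2.35 and 1.17 within batch 2.

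In KO26 few members passed the test. In KO26 against the same 4 WT libraries, 1 of 40 members was higher at an adjusted p under 0.05 and none was lower, against 2.36% and 1.13% of all 20737 genes tested (edgeR, one fit over 9 libraries, n = 2 and 4). At an unadjusted p under 0.05, 8 members were higher and none lower, against 11.1% and 9.02% of all genes. Without KO22 replicate 1 the count of higher members was 11 (10.5% of all genes) and without KO26 replicate 2 it was 4 (2.51% of all genes). No member passed both limits, as 1.21% of all genes did on the higher side. The member that passed was Noc2l (log2 fold change 0.73 ± 0.17, adjusted p = 0.0443), and the call was lost on leaving out any 1 of the 4 WT libraries, KO26 replicate 1, or KO22 replicate 2 or 3 (adjusted p 0.0655 to 0.305). Both KO26 libraries lay above all WT libraries in 3 of the 40 members, Noc2l, Tcof1 and Mybbp1a, as they did in 11.9% of all genes tested, a larger share than that of the members. The members' median log2 fold change was 0.40, with 39 of 40 values above 0, against a median of 0.03 over all genes. Tcof1 had the largest value (1.08, adjusted p = 0.114), and Myc was at 0.16 (adjusted p = 0.603).

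The pair of KO26 libraries stood far apart. In the study, both were set aside as outliers in a principal component analysis before genes were tested. In KO26 replicate 1 the level of 40 of 40 members was above the WT mean, with a median log2 difference of 0.91, and in KO26 replicate 2 it was so for 13 of 40, with a median of -0.083. Against the WT library of its own batch, KO26 replicate 1 had a median log2 difference of 0.49, with 39 of 40 members higher. Against the WT libraries of batch 2, KO26 replicate 2 had a median of 0.03, with 22 of 40 higher. With 1 library per batch, batch and library cannot be told apart for KO26.

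**Figure D4:**
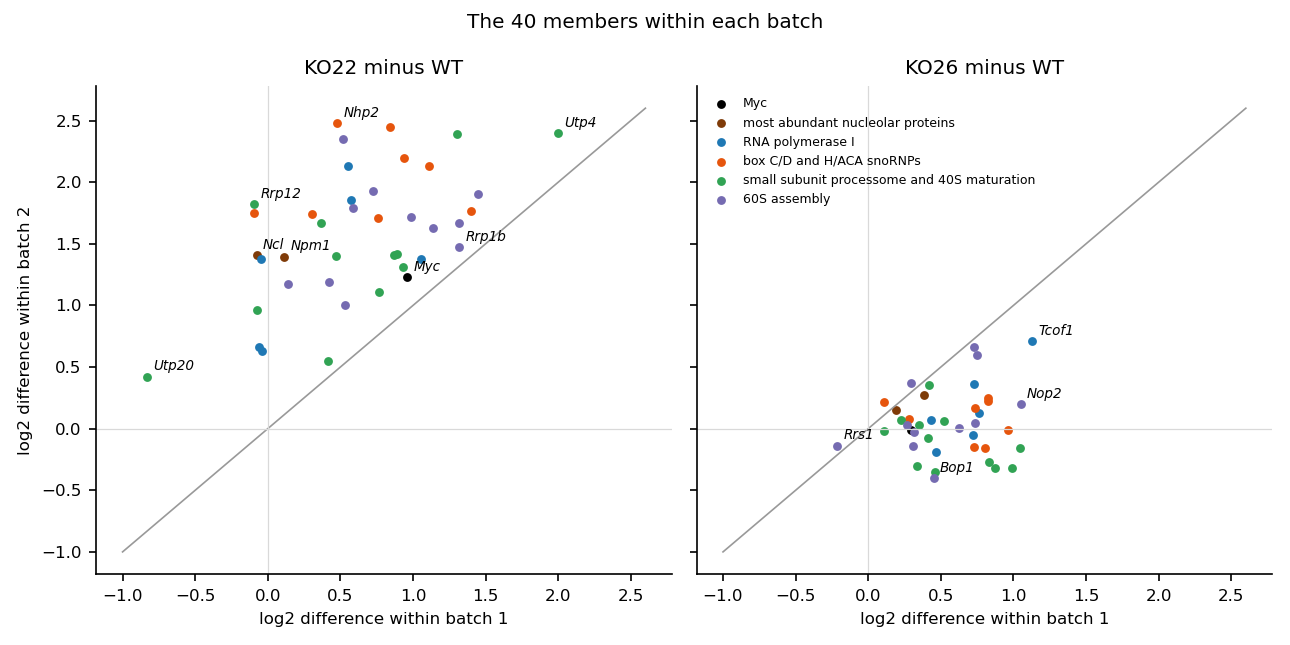
Log2 differences of KO22 (left) and KO26 (right) from WT within batch 1 (x axis) and within batch 2 (y axis) for the 40 members, from CPM with a pseudocount of 0.5, with the line of equality in grey. For KO22 the points lie above the line, with medians of 0.58 and 1.65, and for KO26 nearly all lie below it, with medians of 0.49 and 0.03.

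The direct contrast of the clones showed members higher in KO22. Against KO26, 21 of 40 members were higher and none lower, while 16.3% of all genes were higher and 18.1% lower (edgeR, the same fit over 9 libraries, n = 3 and 2). Past both limits 8 members were higher, against 7.56% of all genes. In a fit of the KO22 and KO26 libraries alone the 21 became 8 and the 8 became 4, with 7.51% and 5.16% of all genes. With no batch term the 21 became 13, with 11.5% of all genes higher. The 21 became 12 without KO26 replicate 2 and 38 without KO22 replicate 1, with 11.7% and 23.6% of all genes higher. The 8 became 3 without KO26 replicate 2, 22 without KO26 replicate 1 and 25 without KO22 replicate 1, with 7.21%, 7.66% and 8.95% of all genes past both limits. The 8 were Utp4 (2.09), Rrs1 (1.72), Rrp9 (1.68), Nop58 (1.60), Dkc1 (1.57), Gnl3 (1.37), Nop56 (1.36) and Bop1 (1.32), as log2 fold changes. Myc was higher in KO22 by 1.00 ± 0.16 (adjusted p = 0.00113). The median over the members was 0.89, but it was 0.019 within batch 1, where 22 of 40 members were higher in KO22, and 1.50 within batch 2, where 40 of 40 were. Within batch 1 the differences of the clones ran from -1.17 (Utp20) to 1.59 (Utp4), with Rrp1b (1.02) and Nop58 (1.00) next to Utp4.

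Other genes of the same pathway, from lists of known components, were mostly higher in KO22 too, where 26.9% of all genes tested were higher and 26.1% lower. Of 46 further genes of the small subunit processome, 34 were higher and none lower (median log2 fold change 0.91), and Nop9 (1.60), Riok2 (1.29) and Nob1 (2.01) had the smallest p-values. Of 51 further genes of 60S assembly, 42 were higher and 1 lower (median 0.98). Urb2 (2.34), Nip7 (2.19) and Rsl1d1 (2.14) led these, and the gene that fell was Nop53 (-0.60). Of 12 further genes of RNA polymerase I, 7 were higher and 1 lower (median 0.63), among them the initiation factor gene Rrn3 (1.30), Polr1e (1.56) and Taf1d (1.11), while Taf1b fell by 1.05 on the log2 scale. Of 9 snoRNP assembly factors, 6 were higher and 1 lower (median 1.00). Nufip1 (1.43), Ruvbl2 (1.197) and Rpap3 (0.89) led them, and Znhit6 fell by 0.61 on the log2 scale. The noncoding host genes that carry snoRNAs in their introns were more mixed, with 9 of 16 table rows higher and 1 lower (median 0.61), where Snhg4 has 2 overlapping rows that were both higher. The 9 fell to 5 without WT replicate 2 or 3, with 23.6% and 23.7% of all genes higher. They were led by Snhg18 (6.33), Snhg6 (0.80) and Snhg5 (1.16), while Snhg12 fell by 0.62 on the log2 scale. In KO26, 1 gene of these lists was higher and none lower, the snoRNP assembly factor gene Ruvbl2 (1.06, adjusted p = 0.0381 by edgeR), while 2.36% of all genes were higher and 1.13% lower.

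For the proteins of the ribosome itself the result depended on the batch. Of 83 ribosomal protein genes tested in KO22, 11 were higher and 4 lower, smaller shares than the 26.9% and 26.1% of all genes, with a median log2 fold change of 0.097. In the libraries of batch 2 alone 43 were higher (with 31.6% of all genes called higher in the same fit), without WT replicate 1 the number was 44 (32.8% of all genes) and without KO22 replicate 1 it was 47 (32.4% of all genes). It was 3 without KO22 replicate 3 (20.8% of all genes) and 6 without WT replicate 2, 3 or 4 (23.5% to 23.7% of all genes). Rpl29 (1.45) and Rpl8 (0.82) were among the rises with the smallest p-values, and Rps4l (-6.08), Rps12 (-0.80) and Rpl27a (-0.42) were the falls with the smallest. Their summed level was 46804 CPM in WT replicate 1 and 23941 to 27341 CPM in the other WT libraries, 33656 CPM in KO22 replicate 1 and 30488 and 36208 CPM in the others, and 59504 and 23871 CPM in KO26. The batch 1 libraries of WT and KO26 were the highest of all 9, and in batch 2 both KO22 libraries lay above the WT libraries. Many of these genes have processed copies, so single values are uncertain.

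Of 11 genes with known roles beside MYC, 2 were higher and 3 lower in KO22. Of all genes tested 26.9% were higher and 26.1% lower, so that these counts do not set the list apart. Not both of the 2 higher calls held without KO22 replicate 2, where 20.2% of all genes were higher. MAX, the obligate partner, was not called (Max, -0.22, adjusted p = 0.108). Among the other members of the network, Mxd3 (0.89, adjusted p = 0.00186) and Mlx (0.62, adjusted p = 0.0085) were higher in KO22, and Mxd4 (-1.31, adjusted p = 0.000254), Mxi1 (-0.58, adjusted p = 0.01) and Mycn (-1.76, adjusted p = 0.0235) were lower, all as log2 fold changes by edgeR. Mxd3, Mxd4 and Mxi1 encode proteins that compete with MYC for MAX and repress its targets. Mxd4 was at 23.1 ± 8.03 CPM in KO22 and 54.5 ± 4.06 CPM in WT (SD, n = 3 and 4). Mycn, the neuronal relative of Myc, was scarce in both groups (0.183 ± 0.151 CPM in KO22 and 0.546 ± 0.168 CPM in WT). In KO26, Mycn was at 2.83 CPM in replicate 1 and 0.231 CPM in replicate 2. Mycl (-0.60), Mxd1 (-0.25), Mnt (-0.32), Mga (-0.17) and Mlxip (0.33) did not pass the test. None of the 11 was called in KO26.

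Of 33 other known MYC target genes tested in KO22, 27 were higher and 1 lower, with a median log2 fold change of 1.40. Past both limits 20 were higher. Of all genes tested 26.9% were higher and 26.1% lower, and 11.4% were higher past both limits. Tfrc, the transferrin receptor gene (3.25), Shmt1, of serine and glycine metabolism (1.87), and Odc1, the rate-limiting enzyme of polyamine synthesis (1.64), had the smallest p-values, and Ccnd2 fell by 0.34 on the log2 scale. In KO26, 2 of 34 were higher (median 0.55), Shmt2 (1.46) and Ldha (0.84), while 2.36% of all genes were. Of 6 genes known to be lowered by MYC, Cdkn1a (-0.47) and Gadd45b (-0.56) were lower in KO22, Cdkn2b (5.97) and Ndrg2 (1.56) were higher, and the other 2, Gadd45a (-0.40) and Ndrg1 (1.13), were not called. The 2 of 6 in each direction stand against 26.9% higher and 26.1% lower of all genes tested.

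**Figure D5:**
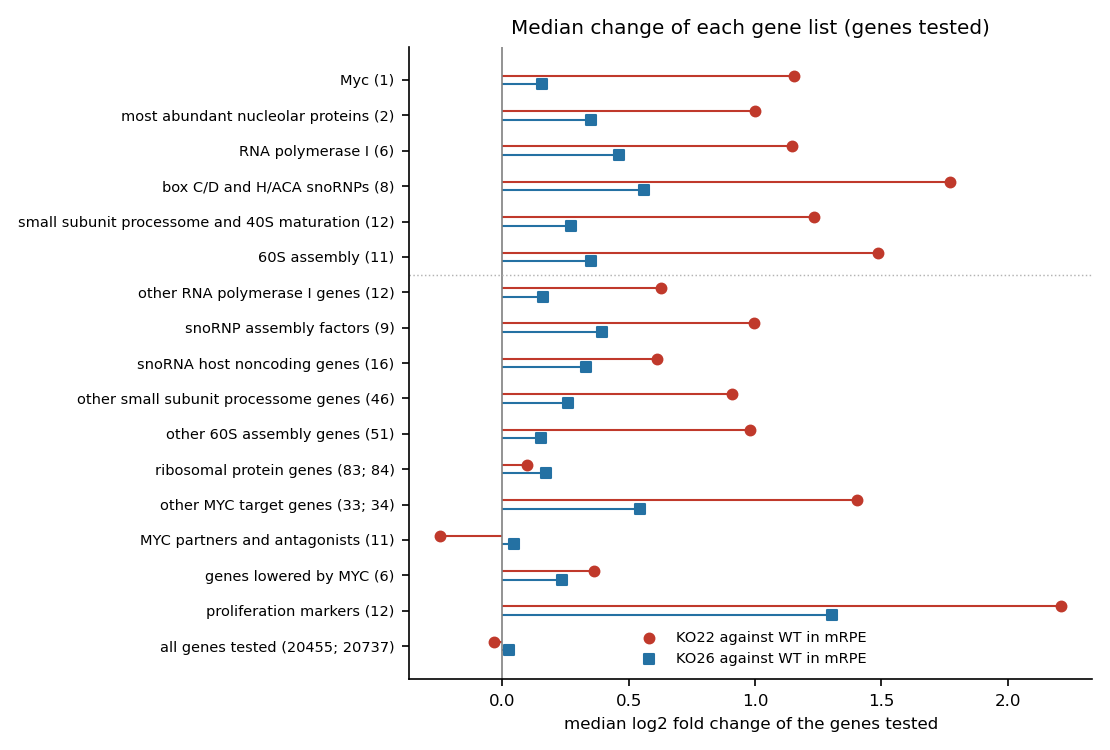
Median fitted log2 fold change of the tested genes of each list in KO22 (circles) and KO26 (squares) against WT, with the number of genes tested in brackets, given for KO22 and then KO26 where they differ. The members' role groups stand above the dotted line, with KO22 medians of 1.00 to 1.77, and the ribosomal protein genes are at 0.097 and the proliferation markers at 2.21.

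Proliferation markers moved as well, and in both clones. All 12 were higher past both limits in KO22 at a median log2 fold change of 2.21, and 10 of 12 were higher in KO26, 6 of them past both limits, with a median of 1.30. Of all genes, 26.9% were higher in KO22 and 11.4% past both limits, and in KO26 2.36% and 1.21%. Their summed level, led by Top2a except in KO26 replicate 1, where Mki67 led, was 1191, 1009, 965.3 and 940.4 CPM in WT, 2755, 4480 and 4275 CPM in KO22, and 2509 and 2176 CPM in KO26. Tpx2 (2.31), Ccnb1 (2.504) and Bub1 (2.42) had the smallest p-values in KO22. KO26 replicate 2 had more than 2 times the summed proliferation markers of any WT library of its batch, while its members stood near the WT level. The part of proliferation in the members' change was not tested. Marker genes of other cell types also differed in summed level, and their calls in KO22 stand against 26.9% higher and 26.1% lower of all genes. Endothelial markers (5 with a row) summed to 153 to 237 CPM in WT, 3.96 to 5.30 CPM in KO22 and 74.2 and 56.6 CPM in KO26. They were led by Kdr except in KO22 replicate 1, where Plvap led, with 2 lower and 1 higher in KO22. Nearly all of the WT sum was Kdr, at 151 to 234 CPM in WT, 0.346 to 3.71 CPM in KO22 and 72.3 and 55.3 CPM in KO26. Fibroblast markers (6, led by Col1a2 except in KO22 replicate 1, where Col3a1 led) summed to 12811 to 17504, 5624 to 8771, and 19872 and 21797 CPM, with 4 lower and 1 higher in KO22. Muscle markers (4, led by Acta2) summed to 596.2 to 1659.7, 149 to 237, and 1777 and 878 CPM, with 2 lower in KO22. Nearly all of that sum was Acta2, at 589 to 1653 CPM in WT, 147 to 233 CPM in KO22 and 1770 and 866 CPM in KO26. Except for 1 endothelial marker in WT replicate 4, none of these cell type markers was at 0 in any library. The part of these markers in the members' change was not tested. The members lie on 18 chromosomes. After the median of all tested genes of its own chromosome was subtracted from each, the members' KO22 median was 1.32. In KO22, 40 of 40 members lay above the median of their chromosome. The chromosome medians for KO22 against WT ran from -0.54 (chromosome 10) to 0.60 (chromosome 8, with Utp4). Chromosome 15, with Myc, was at 0.37.

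In RPE/choroid tissue the members did not differ detectably between the groups. In samples labelled Prom1-KO against WT, none of 40 was called in either direction by edgeR or by DESeq2, 1 was higher and none lower at an unadjusted p under 0.05, and the median log2 fold change was 0.03, with 23 of 40 above 0 (edgeR, n = 3 and 3, 24926 genes tested). Of all genes, 0% were higher and 0.193% lower at an adjusted p under 0.05 by edgeR, with 993 higher and 1075 lower at an unadjusted p under 0.05, and DESeq2 called 145 higher and 303 lower. Npm1, the member with the highest level per length, was at 80.9, 84.5 and 78.8 CPM in WT and 88.9, 96.0 and 161 CPM in the libraries labelled Prom1-KO (log2 fold change 0.50, adjusted p = 0.647 by edgeR). Polr1c, with the smallest p, was at 3.39, 3.38 and 3.16 CPM in WT and 3.86, 4.38 and 5.71 CPM in the libraries labelled Prom1-KO (log2 fold change 0.48, adjusted p = 0.539 by edgeR). Myc was at 8.70, 7.48 and 5.41 CPM in WT and 4.64, 7.26 and 8.03 CPM in the libraries labelled Prom1-KO. In 3 members, Npm1, Ncl and Polr1c, every library labelled Prom1-KO lay above every WT library, as in 6.71% of all genes, and Npm1 and Polr1c were highest in Prom1-KO replicate 3.

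That library stood apart from the others. Mitochondrially encoded genes took 84.2% of its counts, against 64.9% to 71.3% in the other 5, and the ribosomal protein genes summed to 8219.6 CPM in it and to 3349 to 5204 CPM elsewhere. Without it the members' median log2 fold change was 0.017, and none was called. Markers of cell types differed as well. The 15 RPE markers summed to 3062, 2135 and 2667 CPM in WT and to 789.8, 914 and 690.4 CPM in the libraries labelled Prom1-KO, with none at 0. The most abundant was Ttr in WT replicate 1, Rgr in WT replicates 2 and 3, and the melanin synthesis gene Tyrp1 in the 3 libraries labelled Prom1-KO. The defining genes Rpe65, Lrat and Rgr were lower past both limits (log2 fold changes -6.06, -3.43 and -5.23), and the other 12 of the 15 RPE markers were not called. Endothelial markers, led by Kdr except in replicate 3 labelled Prom1-KO, where Tek led, summed to 73.9, 150.5 and 99.4 CPM and to 68.5, 61.1 and 43.1 CPM. A set of 11 rod and cone markers, led by Gnat1, summed to 42.4, 18.4 and 549 CPM in WT and to 316, 85.3 and 14.5 CPM in the libraries labelled Prom1-KO, and none of these endothelial or rod and cone markers was called. The part of these differences in the members' values was not tested.

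Levels of the members were compared between culture and tissue only as a description, since the tables were made separately, and on a scale of CPM per kilobase of exon. In WT mRPE the highest were Npm1 (131.8 ± 25.9, SD, n = 4), Ncl (47.8 ± 18.03) and Myc (24.1 ± 1.89), and the lowest was Rrp12 (0.573 ± 0.282). In WT tissue Npm1 (14.4 ± 0.509, n = 3) and Ncl (11.4 ± 0.713) were again the highest, and Myc (2.63 ± 0.609) was in seventh place. In both, Npm1 and Ncl differed by more than the sum of their SDs. The members' median percentile among protein-coding genes was 68.0 in mRPE and 63.0 in tissue, and 34 of 40 stood higher in mRPE. The percentiles are over 13647 protein-coding genes in mRPE and 15909 in tissue, so they do not share 1 scale. Myc was at percentile 94.4 in mRPE and 83.7 in tissue, and Noc2l, at 47.4 and 69.2, was one of the 6 that stood higher in tissue. The order of the 40 was alike in culture and tissue (Spearman's rho 0.84 across 40 genes, which share their lengths and libraries).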

How the data were processed

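RNA-seq libraries were trimmed with Trim Galore 0.6.7 and aligned to mm39 with STAR, whose gene counts the authors deposited as raw counts per gene, one table for the mRPE cells and one for RPE/choroid. Deposited tables of the same counts divided by size factors were not used. The sources used here differ on the library kit (both name a stranded one).

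Counts were tested with edgeR 4.0.16 (quasi-likelihood test, TMM, R 4.3.3) after leaving out genes that did not reach 5 counts in 3 libraries, with Benjamini-Hochberg adjustment over all genes tested. Batch was a term in mRPE. KO22 against WT was fitted over 7 libraries, the 2 contrasts with KO26 in a joint model of all 9, and tissue over 6. A gene was called at an adjusted p under 0.05, and past both limits with an absolute log2 fold change over 1.2 as well. Within-batch differences used CPM with a pseudocount of 0.5 and no test. The test was checked on simulated counts that held no batch effect, so the check does not cover batches that differ. Alternatives were DESeq2 1.42.0, other scalings and filters, no batch term and leaving out each library. The fit of batch 2 alone and the interaction of clone and batch were chosen after seeing the data.

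The members and the gene lists were chosen with earlier results of these data known, and some members were picked for description by their p-values: values per library are given for Myc, Npm1, Ncl, the 2 smallest and the largest p of each role group, and every member past both limits; of other lists, the 3 smallest adjusted p in each direction and all MYC partners. A gene of the ribosomal protein list and one of the rod and cone list are not reported here by name, and the latter is left out of that list's sum. Replicate libraries all differed by more than counting noise. Depth is given with the results, and CPM values carry counting error as well as the spread shown.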

Additional observations from a re-analysis of the deposited data

Results flagged for a closer look

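In 11 members 1 of the 4 WT mRPE libraries lay far from the other 3, and in all 11 it was WT replicate 1, the only WT library of batch 1, on the high side. Its values were 14.5 CPM for Polr1b, 97.5 CPM for Ddx21, 42.9 CPM for Fbl, 11.9 CPM for Nhp2, 33.3 CPM for Nop10 and 100.2 CPM for Wdr43. They were 10.7 CPM for Noc4l, 8.14 CPM for Rrp12, 23.0 CPM for Nop16, 12.5 CPM for Rrs1 and 53.0 CPM for Ddx18. Chance alone marks about 1 in 20 groups of this size in this way, and the members share their libraries. Over all 20455 genes tested, WT replicate 1 stood apart on the high side in 5.79% and on the low side in 1.78%, and the other WT libraries on the high side in 0.499% to 0.533%.

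The clones differed for 21 members in the contrast of their fold changes against the same WT libraries (edgeR, adjusted p under 0.05 over all genes). Of all genes, 16.3% were higher in KO22 and 18.1% lower. The 21 became 8 in a fit of the KO22 and KO26 libraries alone, with 7.51% of all genes higher. The log2 difference, KO22 minus KO26, was 0.995 for Myc, 1.12 for Polr1b, 1.36 for Nop56, 1.60 for Nop58, 1.57 for Dkc1, 1.14 for Gar1 and 0.907 for Nolc1. It was 2.09 for Utp4, 0.828 for Utp15, 1.04 for Wdr43, 1.68 for Rrp9, 0.88 for Nop14, 0.94 for Ddx10 and 0.988 for Pno1. For 60S assembly it was 1.32 for Bop1, 0.764 for Wdr12, 1.72 for Rrs1, 1.15 for Ppan, 1.07 for Noc2l, 1.37 for Gnl3 and 1.08 for Rrp1b. All 21 are higher in KO22, the fit averages batches that differ, and KO26 has only 2 libraries.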

How the results depend on the processing

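In KO22 against WT, the count of 39 higher members stayed between 35 and 40 when 1 library was left out. In the same fits 20.2% to 32.8% of all genes were called higher, the share that stands in parentheses after the other counts. The members' count past both limits stayed between 20 and 32, with 8.93% to 13.3% of all genes past both limits. The median log2 fold change of 1.34 was 0.58 within batch 1, 1.65 within batch 2, 1.66 with batch 2 alone, and 1.201 to 1.684 when 1 library was left out, with the highest values without WT replicate 1 or KO22 replicate 1. Calls of Polr1a, Polr1c, Bysl and Ncl were those lost under some alternative. Utp20 was at -0.0037 with filterByExpr, -0.015 without WT replicate 2, -0.0065 without WT replicate 4, -0.12 without KO22 replicate 2 and -0.071 without KO22 replicate 3, none of them called. It was called higher with batch 2 alone (0.41) and without WT replicate 1 (0.41) or KO22 replicate 1 (0.44). The count of higher rows of snoRNA host genes fell from 9 to 5 without WT replicate 2 or 3, and that of MYC partners from 2 to 1 without KO22 replicate 2.

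In KO26 against WT, the count of higher members was 1, and it was 2 with DESeq2 (4.7% of all genes), 0 with no batch term (0.839%), 7 with WT and KO26 alone (8.76%), 4 with batch 2 alone (7.98%) and 0 to 11 when 1 library was left out. It was 11 without KO22 replicate 1 (10.5% of all genes), 4 without KO26 replicate 2 (2.51%) and 0 without any one WT library, KO26 replicate 1, or KO22 replicate 2 or 3 (0.457% to 2.06%). With batch 2 alone, or without either KO26 library, KO26 has 1 library, which is assumed to vary like those of the other groups. In the fits that kept both KO26 libraries no member passed both limits, against 0.331% to 2.3% of all genes on the higher side. The members' median ran from -0.056 without KO26 replicate 1 to 0.82 without KO26 replicate 2. Calls over all genes moved as well, from 490 higher and 235 lower to 975 and 625 with DESeq2, 174 and 81 with no batch term and 1742 and 1404 with WT and KO26 alone.

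In KO22 against KO26, the count of 21 (16.3% of all genes higher) was 13 with no batch term (11.5%), 8 with the clones alone (7.51%), 40 with batch 2 alone (25%), and 12 to 38 when 1 library was left out (12 without KO26 replicate 2, 11.7% of all genes, and 38 without KO22 replicate 1, 23.6%). The same holds for these fits with 1 KO26 library. The count past both limits was 4 with the clones alone (5.16% of all genes) and 30 with batch 2 alone (9.48%). When 1 library was left out that count was 3 to 25. It was 3 without KO26 replicate 2 (7.21%), 22 without KO26 replicate 1 (7.66%) and 25 without KO22 replicate 1 (8.95%). The median was 0.019 within batch 1, 1.50 within batch 2, 1.49 with batch 2 alone and 0.48 to 1.31 when 1 library was left out.

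In tissue, no alternative called a member. The median became -0.43 with total counts, where the median of all genes was -0.46, so that relative to all genes it was 0.033. Over all genes 0 higher and 48 lower became 145 and 303 with DESeq2, and 4 and 84 with total counts. No paired analysis was possible because replicate numbers were given in accession order and do not tie libraries across groups. The cause of these changes was not tested.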
